A study of Mus musculus with 6 samples.

Results

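The genes described here build and run the mitotic spindle, hold chromosomes to it and divide the cell. They are 45 genes chosen by name, all of which were found among the 25805 genes listed in the deposited files. RNA was sequenced from mouse kidney after ischaemia-reperfusion injury, in which the blood supply of the kidney is stopped and then restored. The study compared 3 libraries from wild-type kidneys with 3 from kidneys labelled as carrying a knockout of CXCR2, a chemokine receptor through which neutrophils are recruited. Every library of both groups came from an injured kidney, and uninjured kidneys were not analysed here. The labels give no strain, sex, age, time after reperfusion or construction of the knockout, and nothing in them says that the libraries came from separate animals, so the p-values measure only the spread between these libraries, which may be technical.

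After tubular injury, surviving epithelial cells of the kidney re-enter the cell cycle, and fibroblasts, endothelial cells and macrophages can divide as well. Cyclin B with CDK1 starts mitosis, condensin and topoisomerase II shape the chromosomes, and the kinetochore ties each centromere to spindle microtubules under the watch of the spindle checkpoint. When the checkpoint is satisfied, CDC20 switches on the anaphase-promoting complex, the sister chromatids part, and the central spindle and the contractile ring separate the daughter cells. Most of these genes are silent in resting cells. The DREAM complex represses them there through a short promoter element, the cell cycle genes homology region (CHR), and B-MYB and FOXM1 work through the same element in dividing cells, often beside CCAAT boxes that bind NF-Y.

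The promoters of 38 of the 45 genes were found in a RefSeq table of the GRCm38.p6 build, which gives 250 bases before to 50 bases after each transcription start. Those of Ccna2, Foxm1, Pbk, Kif20a, Aurkb, Tpx2 and Smc4 were not matched. The 4 printed here are those of the gene with the smallest p in its role group in the comparison below, for the 4 role groups where that p was smallest among matched genes. They are given on the strand of the gene, with matches to the CHR (TTTGAA or TTCGAA) and to CCAAT in capitals. Both strands were searched and overlapping matches were counted.
Ccnb1, chr13:100786437-100786736, minus strand: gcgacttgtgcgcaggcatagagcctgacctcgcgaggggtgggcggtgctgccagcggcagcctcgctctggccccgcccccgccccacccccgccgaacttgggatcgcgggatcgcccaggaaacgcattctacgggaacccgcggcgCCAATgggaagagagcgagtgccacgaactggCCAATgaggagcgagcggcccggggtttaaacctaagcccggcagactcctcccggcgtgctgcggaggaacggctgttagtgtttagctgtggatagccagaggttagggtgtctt
Spc25, chr2:69206164-69206463, minus strand: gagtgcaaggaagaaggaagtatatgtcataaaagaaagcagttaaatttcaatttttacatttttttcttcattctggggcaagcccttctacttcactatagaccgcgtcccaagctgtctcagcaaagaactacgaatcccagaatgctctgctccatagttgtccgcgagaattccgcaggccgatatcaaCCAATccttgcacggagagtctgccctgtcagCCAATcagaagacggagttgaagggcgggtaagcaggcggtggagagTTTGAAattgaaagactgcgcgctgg
Cdc20, chr4:118437294-118437593, minus strand: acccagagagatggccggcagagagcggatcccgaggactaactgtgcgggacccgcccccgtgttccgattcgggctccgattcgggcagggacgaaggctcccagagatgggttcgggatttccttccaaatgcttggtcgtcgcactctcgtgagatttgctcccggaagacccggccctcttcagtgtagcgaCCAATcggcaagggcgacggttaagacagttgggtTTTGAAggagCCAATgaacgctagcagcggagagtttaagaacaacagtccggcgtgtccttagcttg
Birc5, chr11:117848987-117849286, plus strand: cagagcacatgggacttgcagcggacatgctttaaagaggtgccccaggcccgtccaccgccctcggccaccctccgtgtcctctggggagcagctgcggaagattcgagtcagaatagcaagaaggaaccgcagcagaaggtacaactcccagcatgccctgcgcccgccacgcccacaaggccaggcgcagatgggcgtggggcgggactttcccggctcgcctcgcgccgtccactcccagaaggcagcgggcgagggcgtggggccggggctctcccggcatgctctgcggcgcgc
The Spc25 promoter held its CHR match 25 bases after the start and CCAAT matches 55 and 23 bases before it, whereas Cdc20 held its CHR match 18 bases before the start and CCAAT matches 53 and 8 bases before it. Ccnb1 held 2 CCAAT matches and no CHR match of these letters, and Birc5 held neither in this window.

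A CHR match was present in the promoters of 30 of the 38 genes (78.9%), against 21.7% of the 27025 genes in the table. It lay within 50 bases of the transcription start in 28 of the 38 (73.7%), against 6.12% of all genes. CCAAT was present in 28 of the 38 (73.7%), against 41.1% of all genes, and 26 (68.4%) held both elements, against 9.65% of all genes. The elements were also common in a list of 80 other mitosis genes, described below, of which 64 had a promoter. Of these 64, 39 (60.9%) held a CHR match, and 31 (48.4%) held it within 50 bases of the start. CCAAT was present in 42 of the 64 (65.6%), and 27 (42.2%) held both elements. Of 35 DNA replication genes with a promoter, 6 (17.1%) held a CHR match and 22 (62.9%) a CCAAT match. Promoters were also searched for E2F sites written as TTTCCCGC, TTTGGCGC, TTTCGCGC or TTTGCCGC, a motif added after the other results were known. These were in 2 of 41 promoters of the mitosis genes (4.88%, counting alternative starts), in 14 of 40 promoters of the DNA replication genes (35%) and in 2.26% of all 32851 promoters. A match is a description of the letters and not a binding site.

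**Figure D1:**
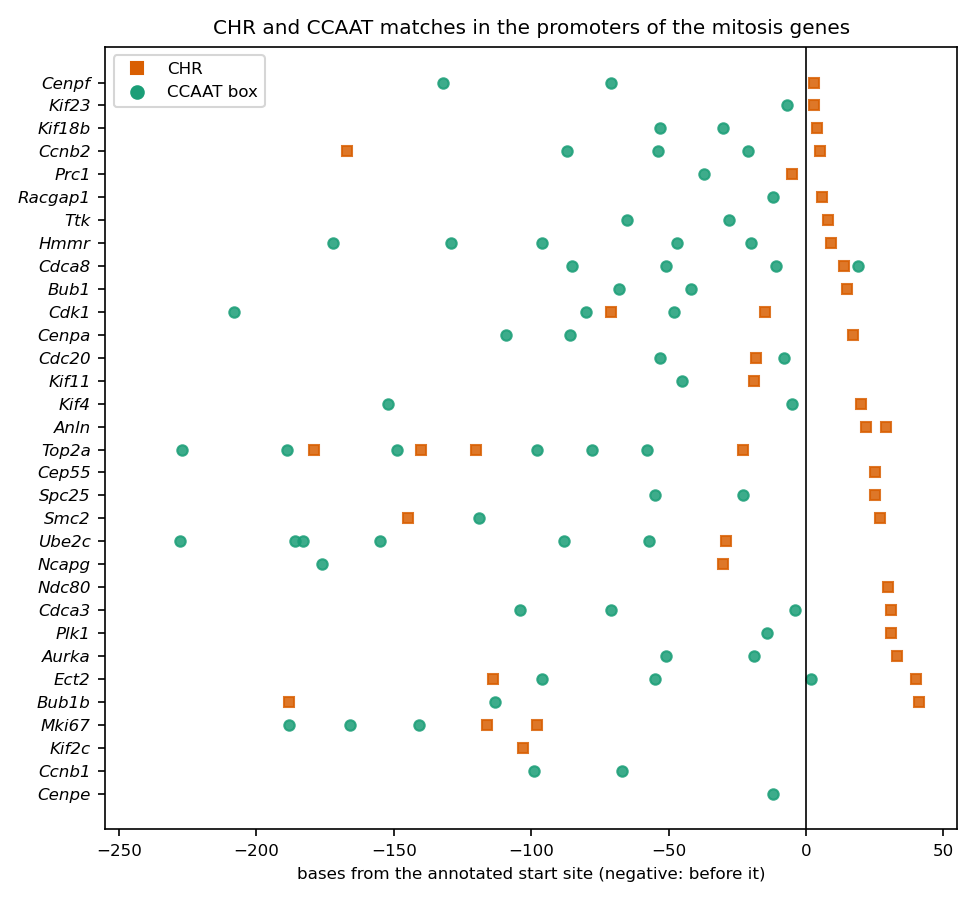
Positions of CHR matches (TTTGAA or TTCGAA) and CCAAT matches in the promoters of the mitosis genes that held either, with 1 row per gene (first promoter listed) and the distance from the transcription start in bases on the horizontal axis. Most CHR matches lie within 50 bases of the start, and most CCAAT matches lie upstream of them.

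The libraries held between 15518083 and 20356601 reads, as recovered from the deposited normalized counts, and replicates differed by more than sampling noise in every pair. Cxcr2 itself, the gene named in the knockout, stood at 15.9, 88.8 and 56.9 normalized counts in wild type and at 98.0, 36.8 and 56.6 in the labelled knockout libraries. The groups overlapped (log2 difference 0.43, SE 0.64, limma adjusted p = 0.841), so the level of Cxcr2 does not check the labels, and the group is called the labelled knockout throughout. Which part of the gene was deleted is not given in the labels. Markers of proximal tubule, podocytes and the other kidney cell types were present in every library. Labelled knockout library 1 stood apart, with a summed level of 8 fat cell markers of 58301 normalized counts against 344 to 3340 in the other 5 libraries, of 12 neutrophil markers of 4473 against 374 to 1294, and of 7 erythroid markers of 13550 against 761 to 2973. The main counts, the medians of the lists of genes and the differences of the genes given library by library are therefore also given without it.

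All 45 genes had a lower mean in the labelled knockout libraries, against 47.0% of the 21721 genes tested. Their median difference was -1.40 on the log2(normalized count + 1) scale, a 2.64-fold lower level, and 33 of the 45 had a mean more than 2-fold lower, while the median of all genes tested was -0.00. Of the 45 differences, 40 were among the lowest 10% of all genes and 26 among the lowest 5%. In 38 of the 45 every labelled knockout library lay below every wild-type library, which held for 9.43% of all genes. The reverse held for 0 of the 45 and for 8.27% of all genes. None of the 45 passed an adjusted p of 0.05 in limma, the main test, in which no gene was called lower (0.0%) and 1 gene in all was called (0.0046%), and their adjusted p ran from 0.314 to 0.812. At an unadjusted p under 0.05 in limma, 36 of the 45 were lower, against 6.14% of all genes, and 0 were higher, against 3.94%.

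The other tests were run on the recovered reads. DESeq2 called 10 of the 45 lower at an adjusted p under 0.05, against 1.2% of the genes it tested: Birc5, Ccnb1, Cdc20, Cdca3, Cenpa, Kif11, Kif2c, Plk1, Spc25 and Top2a. It called 0 of the 45 higher, against 0.598% of the genes. In fits added after seeing the data it called 15 of the 45 lower without labelled knockout library 1 (3.02%) and 6 without labelled knockout library 3 (0.825%). Shares for DESeq2 are of the genes to which each fit gave an adjusted p. Kif2c was not called without library 1, when Aurkb, Bub1b, Cdca8, Cdk1, Kif23 and Ttk were, and Cdca3, Kif11, Plk1 and Spc25 were not called without library 3. With all libraries the 10 genes come from 6 of the 8 role groups below, and the spindle checkpoint and cytokinesis groups held none. The quasi-likelihood test of edgeR called 0 of the 45 (0.0% of the genes it tested called lower). At an unadjusted p under 0.05 in edgeR, 35 were lower, against 6.28% of the 15928 genes it tested. In bulk RNA, fewer dividing cells and less RNA per dividing cell cannot be told apart.

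**Figure D2:**
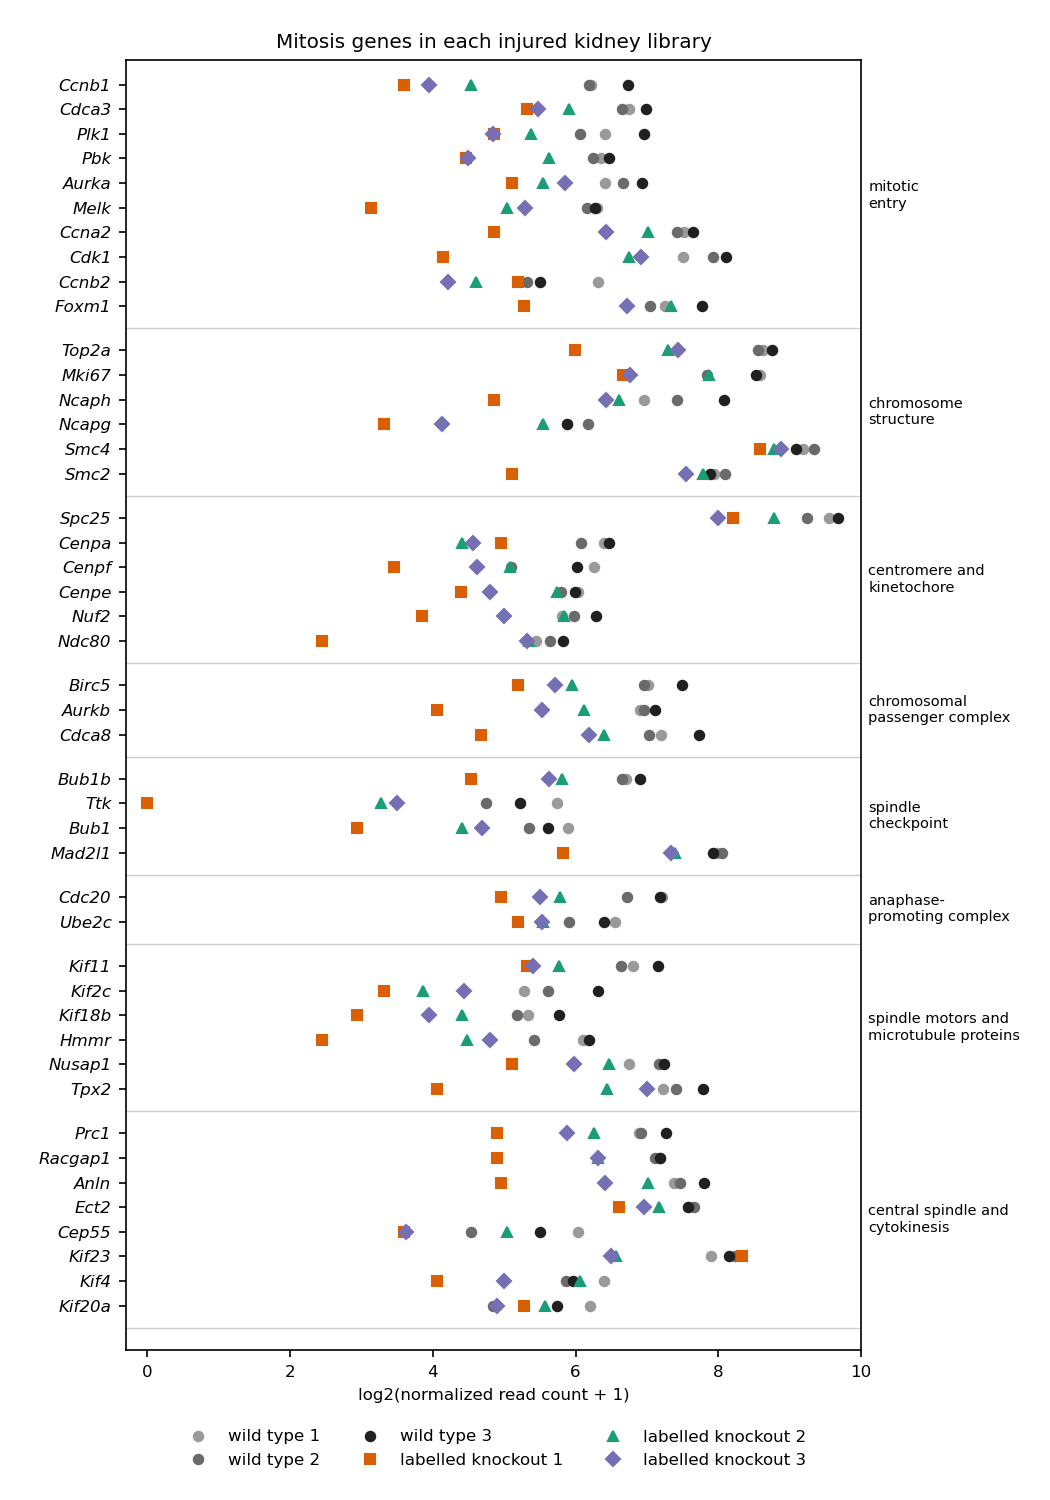
Level of each of the 45 genes in each library, as log2(normalized count + 1), grouped by role, with 3 wild-type libraries as circles and 3 labelled knockout libraries as other symbols. Labelled knockout library 1 is the lowest of the 6 libraries for 39 of the 45 genes, and Kif23 is the gene for which it is the highest.

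The 3 labelled knockout libraries did not carry the difference equally. Relative to the wild-type mean, the median gene of the 45 stood at -2.16, -0.87 and -1.13 (log2) in labelled knockout libraries 1, 2 and 3, and at -0.03, -0.12 and 0.15 in the wild-type libraries. Library 1 was the lowest of all 6 for 39 of the 45 genes, against 27.1% of all genes. The normalized counts of the 45 genes summed to 6636, 6252 and 7512 in wild type and to 2152, 4009 and 3266 in the labelled knockout libraries, or 6800 ± 646 against 3143 ± 935 (mean ± SD, n = 3 each), with no overlap. Without labelled knockout library 1 all 45 means were still lower, the median difference was -1.02, and 36 genes had an unadjusted limma p under 0.05, against 7.91% of all genes in that fit. Within a group, the median SD of the 45 genes on the log2 scale was 0.27 in wild type and 0.803 in the labelled knockout libraries, beside 0.298 and 0.472 over all genes tested.

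**Figure D3:**
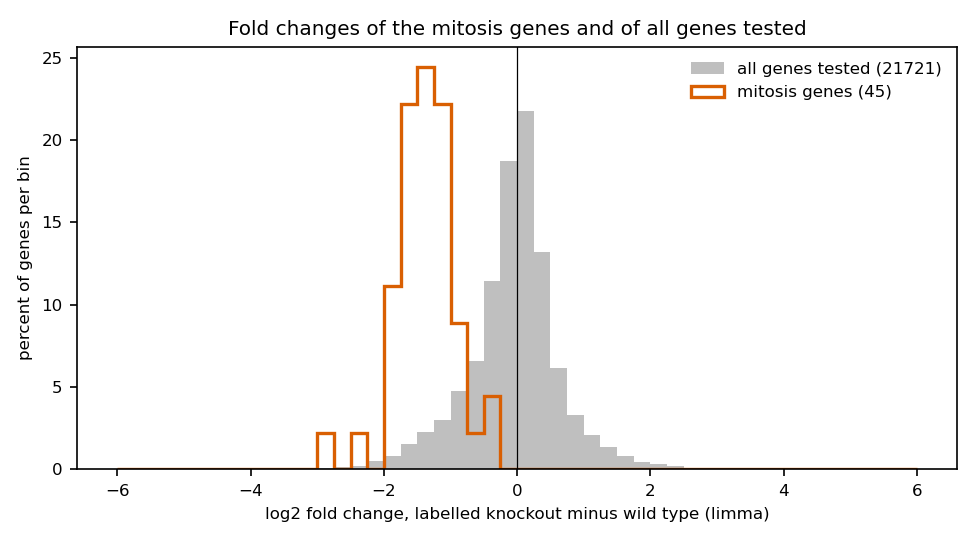
Distribution of the log2 difference between labelled knockout and wild type on the log2(normalized count + 1) scale, as the percent of genes per bin, for the 45 mitosis genes (outline) and all 21721 genes tested (grey). All 45 differences lie below 0, from -2.98 for Ttk to -0.35 for Kif20a, whereas all genes centre on 0.

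The genes grouped here under mitotic entry were 10, with a median difference of -1.44. Of these, 9 had an unadjusted limma p under 0.05 and groups that did not overlap. For this and the other roles, the shares of all genes that were lower are 6.14% at such a p and 9.43% without overlap. Ccnb1 (ENSMUSG00000041431, chr13:100778650-100786570 in mm10) encodes cyclin B1, the partner that activates CDK1 at the entry to mitosis. It stood at 73.6, 72.2 and 106 normalized counts in wild type and at 11.1, 22.3 and 14.4 in the labelled knockout libraries, 83.8 ± 19.0 against 15.9 ± 5.72 (mean ± SD, n = 3), which was 5.26-fold lower. The highest labelled knockout value lay far below the lowest wild-type value, and Ccnb1 had the smallest p of the 45 genes (log2 difference -2.35, 95% confidence interval -3.27 to -1.44, limma adjusted p = 0.314). DESeq2 called it (adjusted p = 0.000176), and without labelled knockout library 1 its difference was -2.14. Near-identical copies of Ccnb1 exist, among them Ccnb1-ps with 99.22% identity over 1287 bases and a mean of 2.87 normalized counts, so some of its reads could be shared.

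Cdca3 (chr6:124829547-124833701), whose product helps to trigger the degradation of the mitosis inhibitor WEE1, stood at 107, 99.9 and 126 in wild type and at 39.0, 59.1 and 43.2 in the labelled knockout libraries. Its means of 111 ± 13.6 and 47.1 ± 10.6 differed by -1.24 (log2, SE 0.32, limma adjusted p = 0.377, DESeq2 adjusted p = 0.0253). All 3 labelled knockout libraries were below the wild-type range. Plk1 (chr7:122159439-122169873), the polo-like kinase that drives mitotic entry and centrosome maturation, stood at 84.4, 65.7 and 123 in wild type and at 27.8, 40.7 and 27.8 in the labelled knockout libraries, with 91.0 ± 29.1 against 32.1 ± 7.42 on average. Its log2 difference was -1.45 (SE 0.37, limma adjusted p = 0.377, DESeq2 adjusted p = 0.0264), and libraries 1 and 3 stood almost level with each other. Without library 1 the median of the role was -1.10, with -1.11 for Cdca3 and -1.36 for Plk1.

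Cdk1, the kinase itself, stood at 181, 242 and 274 in wild type and at 16.7, 106 and 120.4 in the labelled knockout libraries, so that library 1 held much less than the other 2 of its group. Its log2 difference of -1.91 became -1.01 without that library. The other kinases Aurka, Melk and Pbk had differences of -1.17, -1.75 and -1.49, and the cyclins Ccna2 and Ccnb2 of -1.43 and -1.04, with no overlap between groups in any of the 5. Exons of Ccna2 share 510 bases with Exosc9 on the opposite strand, and strand use in the counting is not given in the sources used here. Foxm1, the transcription factor that activates many genes of this kind, was the exception of the group: labelled knockout library 2 reached 161 and overlapped the wild-type values of 152, 130.5 and 217 (log2 difference -0.91, limma adjusted p = 0.574). Labelled knockout libraries 1 and 3 held 37.9 and 105 normalized counts of Foxm1, and without library 1 its difference was -0.32.

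Among 6 genes of chromosome structure the median difference was -1.37, and 5 had an unadjusted limma p under 0.05 and 5 did not overlap. Top2a (chr11:98992943-99024189), the topoisomerase that untangles sister chromatids, stood at 395, 376 and 429 in wild type and at 62.4, 157 and 173 in the labelled knockout libraries, or 400.0 ± 26.9 against 131 ± 59.7, which was 3.06-fold lower. The wild-type values lay close together and library 1 held the lowest count (log2 difference -1.74, SE 0.38, limma adjusted p = 0.369, DESeq2 adjusted p = 0.00503). Mki67 (chr7:135689784-135716361), which encodes the proliferation antigen Ki-67 that coats mitotic chromosomes, stood at 383, 229 and 369.7 in wild type and at 100.2, 233 and 108 in the labelled knockout libraries. Its groups overlapped, since library 2 of the labelled knockout lay just above wild-type library 2, although its means of 327 ± 85.0 and 147 ± 74.7 gave a log2 difference of -1.22 (SE 0.37, limma adjusted p = 0.391).

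Ncaph (chr2:127103809-127133954), the subunit that closes the ring of condensin I, stood at 123, 171 and 268 in wild type and at 27.8, 96.8 and 85.4 in the labelled knockout libraries (log2 difference -1.52, SE 0.51, limma adjusted p = 0.423). The wild-type values were spread widely, and all of them lay above the labelled knockout range. The condensin subunits Ncapg, Smc2 and Smc4 had differences of -1.65, -1.16 and -0.45. Smc2, a core ATPase of condensin, stood at 244, 273 and 234 in wild type and at 33.4, 219 and 186 in the labelled knockout libraries, so most of its difference lay in library 1, and without it the difference was -0.31. Smc4 is the partner ATPase of Smc2 and stood at 579, 648 and 545 against 384, 441 and 471, a small difference that all 3 labelled knockout libraries shared. The median of the role without library 1 was -0.98, with -1.27 for Top2a, -1.002 for Mki67 and -0.96 for Ncaph. Exons of Ncapg share 944 bases with Lcorl on the opposite strand.

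The 6 centromere and kinetochore genes had a median difference of -1.21, with 3 at an unadjusted limma p under 0.05 and 5 without overlap. Spc25 (chr2:69193895-69206194), a subunit of the NDC80 complex that grips microtubules, stood at 746, 602 and 816 in wild type and at 294, 441 and 255 in the labelled knockout libraries, with means of 721 ± 109 and 329.9 ± 97.7. All 3 labelled knockout libraries lay below the wild-type range (log2 difference -1.15, SE 0.24, limma adjusted p = 0.368, DESeq2 adjusted p = 0.0119), and the difference was -1.09 without library 1. Cenpa (chr5:30666777-30674830) encodes the histone H3 variant that marks the centromere. It stood at 83.6, 66.6 and 87.6 in wild type and at 30.1, 20.3 and 22.6 in the labelled knockout libraries, 79.3 ± 11.1 against 24.3 ± 5.09, which was 3.26-fold lower (log2 difference -1.67, SE 0.35, limma adjusted p = 0.368, DESeq2 adjusted p = 0.00448). Cenpa was among the genes for which library 1 was not the lowest, and without that library its difference was -1.83.

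Cenpf (chr1:189640606-189688086), a large protein of the outer kinetochore, stood at 75.2, 33.3 and 63.7 in wild type and at 10.02, 32.9 and 23.7 in the labelled knockout libraries (log2 difference -1.40, SE 0.53, limma adjusted p = 0.451). Wild-type library 2 and labelled knockout library 2 were nearly level, and the groups did not quite overlap. Cenpe, the kinetochore motor that moves chromosomes to the spindle equator, differed by -0.96 without overlap, and Nuf2, which pairs with Ndc80, by -1.14 with overlap. Ndc80 stood at 42.6, 49.0 and 55.7 in wild type and at 4.46, 39.7 and 39.1 in the labelled knockout libraries, and its difference of -1.27 was -0.30 without library 1. The median of the role was then -0.80, with -0.94 for Cenpf.

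All 3 genes of the chromosomal passenger complex, which corrects faulty attachments and later works at the midzone, had an unadjusted limma p under 0.05 and no overlap, with a median difference of -1.57. Birc5 (chr11:117849251-117855743) encodes survivin, the subunit that carries the complex to the centromere. It stood at 128, 124 and 179.7 in wild type and at 35.6, 61.0 and 51.5 in the labelled knockout libraries, 144 ± 31.1 against 49.4 ± 12.8, which was 2.91-fold lower (log2 difference -1.54, SE 0.33, limma adjusted p = 0.369, DESeq2 adjusted p = 0.00441). Aurkb (chr11:69045647-69051664), the kinase of the complex, stood at 119, 124 and 138 in wild type and at 15.6, 68.7 and 45.3 in the labelled knockout libraries (log2 difference -1.76, SE 0.51, limma adjusted p = 0.391). Wild-type values lay close together for Aurkb, and library 1 was far below the other labelled knockout libraries. Cdca8 (chr4:124918465-124939311), which encodes borealin, stood at 146, 129.5 and 212 in wild type and at 24.5, 83.3 and 72.0 in the labelled knockout libraries (log2 difference -1.57, SE 0.48, limma adjusted p = 0.391). The order of libraries 1, 3 and 2 from lowest to highest was that of Aurkb. Without library 1 the differences were -1.32 for Birc5, -1.17 for Aurkb and -1.03 for Cdca8. Exons of Cdca8 share 232 bases with 9930104L06Rik on the opposite strand, which stood at a mean of 237 normalized counts, and the part of that gene in the values was not tested.

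The 4 spindle checkpoint genes, whose products hold back anaphase until every kinetochore is attached, had a median difference of -1.52, and all 4 had an unadjusted limma p under 0.05 and no overlap. Bub1b (chr2:118598211-118641591) encodes BUBR1, which binds and blocks CDC20, and stood at 104, 99.9 and 118 in wild type and at 22.3, 55.2 and 48.4 in the labelled knockout libraries (log2 difference -1.43, SE 0.40, limma adjusted p = 0.390, DESeq2 adjusted p = 0.0536). Ttk (chr9:83834689-83872389), the MPS1 kinase that sets off checkpoint signalling, stood at 52.7, 25.9 and 36.4 in wild type and at 0, 8.71 and 10.3 in the labelled knockout libraries. Library 1 held 0 reads of Ttk, which allows up to 3 reads or 3.34 normalized counts there, counting error alone, so the fitted log2 difference of -2.98 (SE 0.91, limma adjusted p = 0.391) depends on the pseudocount, being -4.14 at 0.1 and -2.05 at 5. Without that library the difference was -1.85. Bub1 (chr2:127801122-127831865), the kinase that recruits other checkpoint proteins to the kinetochore, stood at 58.5, 39.8 and 47.8 in wild type and at 6.68, 20.3 and 24.7 in the labelled knockout libraries (log2 difference -1.60, SE 0.53, limma adjusted p = 0.413). Mad2l1, which encodes the MAD2 inhibitor of CDC20, stood at 251, 264 and 242 against 55.7, 167 and 161, and its wild-type values spanned a narrow range. Its log2 difference of -1.13 became -0.62 without library 1. Without library 1 the median of the role was -1.05, with -1.04 for Bub1b and -1.07 for Bub1.

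Both genes of the anaphase-promoting complex in the list had an unadjusted limma p under 0.05 and no overlap. Cdc20 (chr4:118432901-118437352), the activator that the checkpoint blocks, stood at 147, 105 and 144 in wild type and at 30.1, 54.2 and 44.3 in the labelled knockout libraries, 132 ± 23.8 against 42.8 ± 12.1, which was 3.08-fold lower (log2 difference -1.62, SE 0.34, limma adjusted p = 0.369, DESeq2 adjusted p = 0.00284). Exons of Cdc20 share 53 bases with Elovl1 and those of Ube2c share 592 bases with Tnnc2, both on the opposite strand. Ube2c (chr2:164769898-164778822), the ubiquitin-conjugating enzyme of the complex, stood at 92.8, 59.2 and 83.0 in wild type and at 35.6, 45.5 and 45.3 in the labelled knockout libraries (log2 difference -0.86, SE 0.34, limma adjusted p = 0.456). The differences without library 1 were -1.40 for Cdc20 and -0.75 for Ube2c. The 14 constitutive subunits and regulators of the same complex, from a list of the wider pathway, had a median difference of 0.05. Of these, 1 was lower at an unadjusted limma p under 0.05, Anapc13 with -0.63, a count near the share of all genes (6.14%). DESeq2 called none.

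All 6 spindle motors and microtubule proteins had an unadjusted limma p under 0.05 and no overlap, with a median difference of -1.65. Kif11 (chr19:37376403-37421859), the kinesin that pushes the spindle poles apart, stood at 110.3, 98.1 and 142 in wild type and at 39.0, 53.2 and 41.2 in the labelled knockout libraries, 117 ± 22.8 against 44.5 ± 7.68 (log2 difference -1.37, SE 0.32, limma adjusted p = 0.373, DESeq2 adjusted p = 0.0098). Its labelled knockout values lay close together and well under the wild-type range. Kif2c (chr4:117159639-117182639) encodes MCAK, which takes microtubule ends apart, and stood at 37.6, 48.1 and 78.5 in wild type and at 8.91, 13.6 and 20.6 in the labelled knockout libraries, 3.81-fold lower on average (log2 difference -1.87, SE 0.47, limma adjusted p = 0.377, DESeq2 adjusted p = 0.03). Kif18b (chr11:102905529-102925124), a kinesin of astral microtubule ends, stood at 39.3, 35.2 and 53.5 in wild type and at 6.68, 20.3 and 14.4 in the labelled knockout libraries (log2 difference -1.66, SE 0.49, limma adjusted p = 0.391). Hmmr and Nusap1, which bind spindle microtubules, differed by -1.99 and -1.21. Tpx2, the activator of Aurora A on the spindle, stood at 149, 169 and 221 in wild type and at 15.6, 86.2 and 127 in the labelled knockout libraries, with library 1 far below the other 2 of its group. When library 1 was left out, the median of the role was -1.25, with -1.28 for Kif11, -1.59 for Kif2c, -1.25 for Kif18b and -0.76 for Tpx2.

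The central spindle and cytokinesis genes were the most mixed group, with 8 genes, a median difference of -1.15, 4 at an unadjusted limma p under 0.05 and 4 without overlap. Prc1 (chr7:80294450-80316259), which bundles the antiparallel microtubules of the midzone, stood at 117, 120.3 and 152 in wild type and at 29.0, 75.5 and 57.6 in the labelled knockout libraries (log2 difference -1.34, SE 0.40, limma adjusted p = 0.391). Its exons share 911 bases with Rccd1 on the opposite strand. Racgap1 (chr15:99620496-99651656), the GTPase-activating subunit of centralspindlin, stood at 144, 137 and 144 in wild type and at 29.0, 78.4 and 78.2 in the labelled knockout libraries, 142 ± 4.17 against 61.9 ± 28.5 (log2 difference -1.32, SE 0.42, limma adjusted p = 0.398). The 3 wild-type libraries were nearly level. Anln (chr9:22332012-22389188), the anillin scaffold of the contractile ring, stood at 166, 176 and 222 in wild type and at 30.1, 128 and 84.4 in the labelled knockout libraries (log2 difference -1.42, SE 0.49, limma adjusted p = 0.429). Ect2, the exchange factor that activates RHOA at the cleavage site, differed by -0.69 without overlap. Leaving out library 1 gave a median of -0.84 for the role, with -0.96 for Prc1, -0.85 for Racgap1 and -0.84 for Anln.

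The other 4 cytokinesis genes overlapped between the groups. Kif23, the motor that pairs with Racgap1 in centralspindlin, stood at 237, 301 and 284 in wild type and at 321, 93.9 and 89.5 in the labelled knockout libraries. It was the gene of the 45 that was highest in labelled knockout library 1, and without that library its difference went from -0.96 to -1.56. Cep55, the scaffold of abscission, and Kif4, a chromosome-bound kinesin of the midzone, differed by -1.27 and -1.04. Kif20a, a midzone kinesin that carries the passenger complex, had the smallest difference of the 45, -0.35 (limma adjusted p = 0.812). Exons of Kif20a share 1271 bases with Cdc23 and those of Kif4 share 832 bases with Pdzd11, both on the opposite strand and both neighbours at a higher mean level (448 and 521 normalized counts). Their part in the measured values was not tested.

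Levels of partner genes were divided by the length of the gene model, which may differ from the length of the transcripts present. Ratios of such levels can be compared between libraries, but their size depends on the lengths used. In wild type the highest mean level was that of Spc25, at 226 normalized counts per kilobase, followed by Smc4 at 113 and Cdc20 at 70.7, and the lowest was that of Cenpf at 3.72. On this scale Spc25 stood above Ndc80 of the same complex, with a ratio of 35.7, 25.02 and 29.8 in wild type. The ratio was 134, 22.6 and 13.3 in the labelled knockout libraries, where library 1 held only 4 reads of Ndc80. The ratio of Spc25 to Spc24, also of that complex, was 2.60, 2.26 and 3.62 in wild type and 8.88, 2.72 and 2.41 in the labelled knockout libraries. The ratio of Kif23 to Racgap1 was 1.48, 1.97 and 1.76 in wild type, and 9.93, 1.07 and 1.03 in the labelled knockout libraries. Smc2 stood at 0.401, 0.401 and 0.409 of the level of Smc4 in wild type and at 0.0827, 0.472 and 0.376 in the labelled knockout libraries. In each of these pairs library 1 was the one that left the wild-type range farthest. The ranges of the groups overlapped in all 9 ratios of partners that were computed.

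**Figure D4:**
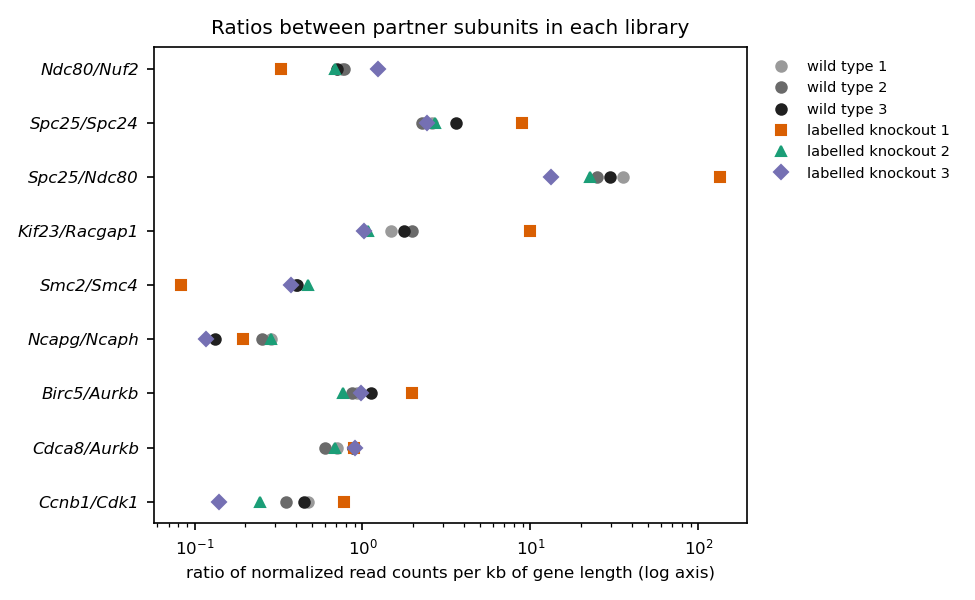
Ratio of levels per kilobase between 9 pairs of partner proteins' genes in each library, on a log axis, with wild-type and labelled knockout libraries marked separately. The ranges of the groups overlap in every pair, and labelled knockout library 1 lies apart for Kif23 to Racgap1 and for Smc2 to Smc4.

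Of 80 other genes of mitosis, 79 had a lower mean in the labelled knockout libraries, the exception being Bub3, a checkpoint gene at 1055 ± 43.2 against 1060.2 ± 179. Their median difference was -1.06, and 34 were lower at an unadjusted limma p under 0.05 (6.14% of all genes). In 44 the groups did not overlap (9.43% of all genes were lower without overlap). None passed limma's adjusted threshold, and DESeq2 called 6 lower (1.2% of the genes it tested). Without labelled knockout library 1 the median was -0.53, and 30 were lower at an unadjusted limma p under 0.05 (7.91% of all genes). Espl1, the separase that cuts cohesin at anaphase, stood at 97.8, 104 and 126 in wild type and at 22.3, 48.4 and 39.1 in the labelled knockout libraries (log2 difference -1.61, limma adjusted p = 0.373, DESeq2 adjusted p = 0.0103). Sgo1, the shugoshin that shields centromeric cohesin, differed by -1.84, Iqgap3 by -1.79 and Lmnb1, a lamin of the nuclear envelope, by -0.73.

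DNA replication genes, which act before mitosis, were lower on average in 43 of 43 cases (47.0% of all genes), with a median difference of -0.95. At an unadjusted limma p under 0.05, 17 were lower (6.14% of all genes), and 34 were lower without overlap (9.43%). DESeq2 called 1 lower (1.2% of the genes it tested), a single call that is not read as a result about the list. Without labelled knockout library 1 their median was -0.45, and 22 were lower at an unadjusted limma p under 0.05 (7.91% of all genes). The gene called by DESeq2 with all libraries was Tk1, the thymidine kinase of the salvage pathway, at 774, 971 and 1096 in wild type and 111, 431 and 247 in the labelled knockout libraries (log2 difference -2.03, limma adjusted p = 0.373, DESeq2 adjusted p = 0.00458). Cdc45, a part of the replicative helicase, differed by -1.48, Rrm1 of ribonucleotide reductase by -0.81 and the origin protein Orc6 by -0.75. Relative to the wild-type mean, the median replication gene stood at -2.04, -0.36 and -0.53 in labelled knockout libraries 1, 2 and 3. In library 1 this was near the median of the 45 mitosis genes, and in libraries 2 and 3 it was closer to wild type than theirs, a difference between lists that was not tested.

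Regulators upstream of mitosis differed less as lists. The 13 G1 regulators had a median difference of -0.28, with 4 lower at an unadjusted limma p under 0.05 (6.14% of all genes). DESeq2 called Ccne2 and E2f2 lower (1.2% of the genes it tested). Ccne2, a cyclin of S phase entry, stood at 144, 142 and 168 in wild type and at 69.1, 74.5 and 73.1 in the labelled knockout libraries (DESeq2 adjusted p = 0.0151), with little spread within either group. The 14 genes of the DREAM and MuvB complexes and their partners had a median of -0.35. Of these, 4 were lower at an unadjusted limma p under 0.05 (6.14% of all genes). Among the 4 was Mybl2, which encodes B-MYB, at 115, 171 and 206 in wild type and 15.6, 83.3 and 103 in the labelled knockout libraries. E2f8, a repressor of the cell cycle, differed by -1.26.

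The 7 CDK inhibitors had a median difference of -0.20. At an unadjusted limma p under 0.05, 0 were lower (6.14% of all genes) and 0 were higher (3.94%). None passed the adjusted threshold, and DESeq2 called 0. Cdkn1a, which encodes p21 and was picked out after its values were seen, stood at 1006, 2136 and 1891 in wild type and at 3305, 976 and 1192 in the labelled knockout libraries, so that library 1 held the highest level. The 8 cohesin and tubulin genes, which resting cells also express, had a median of -0.07. Without labelled knockout library 1 the medians were -0.32 for the G1 regulators, -0.09 for the DREAM and MuvB genes, -0.42 for the CDK inhibitors, -0.08 for cohesin and tubulin and 0.01 for the constitutive subunits of the anaphase-promoting complex.

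Markers of other cell types also differed between the groups. Of 12 fibroblast and pericyte markers, 9 had a lower mean in the labelled knockout libraries. At an unadjusted limma p under 0.05, 8 were lower (6.14% of all genes), and DESeq2 called 6 lower (1.2% of the genes it tested). Their summed level was 17437 to 36748 normalized counts in wild type and 5322 to 14208 in the labelled knockout libraries, with a median relative to wild type of -1.39, -0.97 and -2.61 in labelled knockout libraries 1, 2 and 3. Of 10 endothelial markers, 9 had a lower mean, and their sum was 13177 to 22323 in wild type and 5430 to 13132 in the labelled knockout libraries. At an unadjusted limma p under 0.05, 4 of them were lower, and DESeq2 called 0. Without library 1, 7 endothelial markers were lower at that limma p (7.91% of all genes) and DESeq2 called 6 lower (3.02% of the genes it tested). The counts for the fibroblast and pericyte markers were then 7 and 4. Of 11 macrophage and monocyte markers, 8 had a lower mean, with a median difference of -0.37. At an unadjusted limma p under 0.05, 3 of them were lower and 1 was higher, and DESeq2 called 1 lower. Without library 1 their median was -0.72, 5 were lower at that limma p (7.91% of all genes) and DESeq2 called 3 lower (3.02% of the genes it tested). The 12 proximal tubule markers had 10 higher means and a sum of 99784 to 148469 in wild type and of 121346 to 246771 in the labelled knockout libraries, with a median relative to wild type of 1.48, 0.58 and 0.02 in labelled knockout libraries 1, 2 and 3. Fibroblast and endothelial markers stood lowest in library 3, whereas proximal tubule markers, like the mitosis genes, stood farthest from wild type in library 1. Without library 1 the median differences were -1.77 for the fibroblast and pericyte, -1.20 for the endothelial and 0.29 for the proximal tubule markers, beside -1.65, -0.90 and 0.61 with it. The 8 markers of injured tubule summed to 327839, 446281 and 440597 in wild type and to 109686, 324041 and 641857 in the labelled knockout libraries, with the lowest sum in library 1. Their median relative to wild type was -0.37, -0.32 and 0.33 in labelled knockout libraries 1, 2 and 3, so libraries 1 and 2 were nearly level by that measure. The median difference of these markers was -0.33 with library 1 and 0.07 without it. No marker of these lists was at 0 in all 6 libraries, and the part of these cell types in the lower levels of the mitosis genes was not tested.

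**Figure D5:**
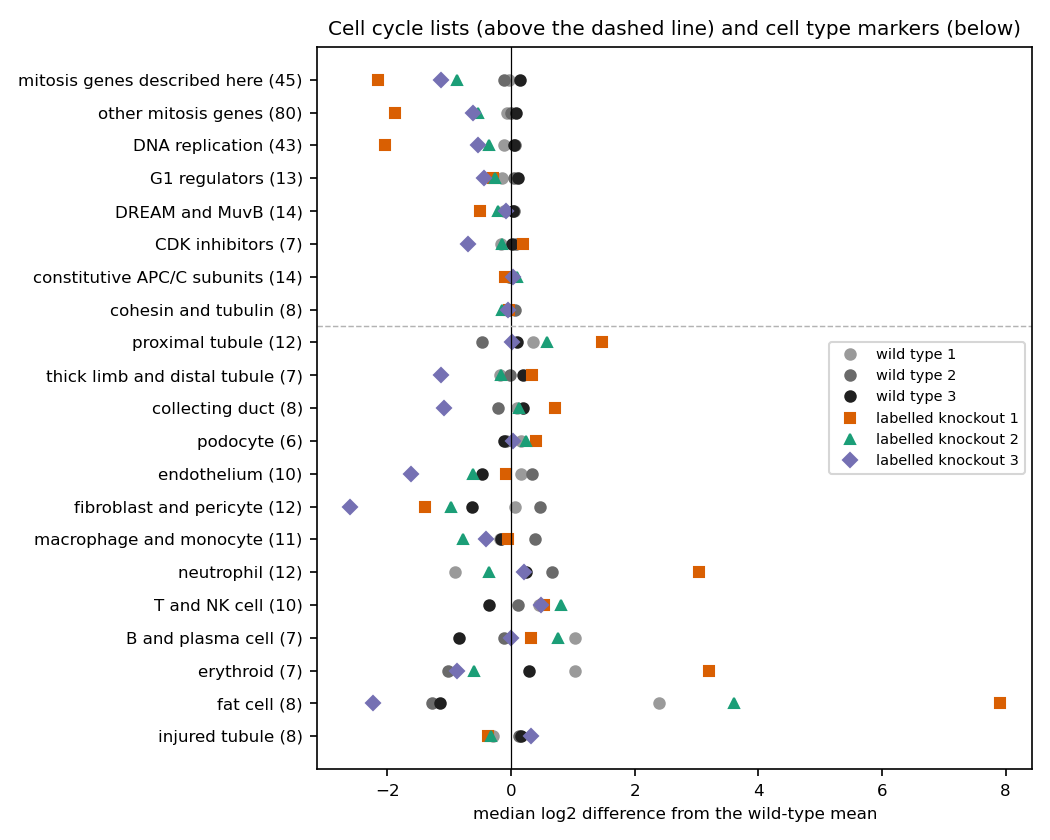
Median log2 difference from the wild-type mean of each cell cycle list (above the dashed line) and each list of cell type markers (below it), with 1 point per library and the number of genes in parentheses. The mitosis genes lie at -2.16, -0.87 and -1.13 in the 3 labelled knockout libraries, and the fat cell, neutrophil and erythroid markers of labelled knockout library 1 lie far to the right.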

How the data were processed

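Kidney RNA from 6 libraries (3 wild type, 3 labelled CXCR2 knockout) was analysed from 1 deposited table per library. The deposited values are a signal made by the authors: each library's read counts after division by its own size factor, since 100% of them came out as whole reads within 0.001 reads. They are therefore called normalized counts. The genome build was mm10, per the submitters' processing notes. For the aligner, counter, annotation version and strand use: not given in the sources used here. Depth was 15518083 to 20356601 reads, and replicate pairs differed by 31.1 to 162 times the counting noise (chi-square per degree of freedom).

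Values were tested as log2(value + 1) for the 21721 genes with a mean of at least 1, with limma 3.58.1 in R 4.3.3 (trend and robust options, genotype only), adjusted by Benjamini-Hochberg over all genes tested. As alternatives, the recovered reads were tested with edgeR 4.0.16 (quasi-likelihood) and DESeq2 1.42.0 (Wald). An exact permutation of 3 libraries against 3 gives no two-sided p under 0.1, so none was run. Only the main forms of the limma, edgeR and DESeq2 fits were tried on simulated data, and the variants named next were not. Other pseudocounts, filters, TMM scaling, a replicate block and leaving out each library were tried, and 3 DESeq2 fits were added after seeing the data. The members and lists were chosen with earlier results of these data known, so they are no independent evidence of direction. Within each role, the 3 genes of smallest p were given library by library, and for each wider list the 4 of smallest p were eligible to be named. Genes described beyond these were chosen after their values were seen. Promoters came from a RefSeq table (GRCm38.p6) matched by gene symbol.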

Additional observations from a re-analysis of the deposited data

How the results depend on the processing

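The mean of every one of the 45 genes was lower in the labelled knockout libraries under all 15 alternatives listed at the outset. At limma's adjusted threshold 0 of the 45 passed under each of the limma fits among them and in edgeR, while DESeq2 called 10. Leaving out 1 library at a time left 0 past the adjusted threshold, 25 to 40 at an unadjusted p under 0.05 (2.81% to 7.91% of all genes), 38 to 43 without overlap (12.04% to 16.2% of all genes, more than with all libraries, as fewer libraries have to be separated) and a median from -1.67 to -1.02. Over the same fits 20 to 43 of the other mitosis genes and 6 to 28 of the replication genes had an unadjusted p under 0.05. The replication count was 10, 6 and 7 without wild-type libraries 1, 2 and 3 and 28 without labelled knockout library 2, beside 17 with all libraries, and the other mitosis count was 20 without wild-type library 3, beside 34. Without labelled knockout libraries 1 and 3 together, which leaves 1 library whose spread is taken from wild type, 23 of the 45 genes, 22 other mitosis genes and 6 replication genes had an unadjusted p under 0.05, and the median was -0.87. In that fit 4.73% of all genes had such a p. In the fits added after seeing the data, DESeq2 called 15 of the 45 without labelled knockout library 1 (3.02% of the genes it tested). It called 6 without labelled knockout library 3 (0.825%) and 10 with the replicate number as a block. The share of genes called with the block was not computed, so this 10 cannot be set against a background. Of the 10 called with the block, 6 were among the 10 called without it. Cdca3, Kif11, Kif2c and Plk1 were not called with the block, and Aurkb, Cdca8, Cdk1 and Ncaph were. In limma with the replicate number as a block, 0 of the 45 passed, 34 had an unadjusted p under 0.05 (6.08% of all genes), as had 42 other mitosis genes and 24 replication genes, and 16 genes in all passed, beside 1 without it. Libraries of the same number correlated at 0.0674, -0.148 and 0.122 in their deviations from the group means. These values gave no clear sign of a pairing by number, but with 3 libraries per group they cannot settle whether there was any. Genes past limma's threshold over the whole table numbered 1 in the main test, 5 at a pseudocount of 5, 5 with no filter, 4 with TMM scaling, 6 and 3 without labelled knockout libraries 1 and 3, and 310 in DESeq2. The cause of these shifts was not tested. Of 345 alternative values of the 23 genes of smallest p in their roles, 335 kept their side of the threshold, 10 passed it in DESeq2 and 0 reversed. Other genes given library by library, such as Cdk1, Smc2, Ndc80 and Kif23, were not part of this check. Depth limited Ttk, with 0 reads in labelled knockout library 1, and Ndc80 and Hmmr, with 4 reads each there.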

Other observations

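The promoter elements common among the mitosis genes were also present in 1095 other tested genes that held both a CHR match and a CCAAT match. These genes had a median log2 difference of -0.04 between labelled knockout and wild type, and 90 of them (8.22%) were lower at an unadjusted limma p under 0.05. Of 6783 other genes with neither element, the median was 0.02 and 400 (5.90%) were lower at that level. Over all 13736 other genes in this comparison the share was 6.16%. Other here means outside the main list of mitosis genes, and the wider list of other mitosis genes was not set apart. In that wider list 27 of the 64 genes with a promoter held both elements, and 34 of 80 were lower at that level. The part of that wider list in the 8.22% was not tested. Among the mitosis genes themselves, the 30 with a CHR match had differences from -2.98 to -0.69 and the 8 without one from -2.35 to -0.96, so both kinds covered a similar range. The comparison is a description of counts, and the difference between these groups of genes was not tested.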
